A study of Mus musculus with 8 samples.

Results

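Histone-modifying enzyme genes outside Polycomb were followed in mouse embryonic stem cells (ESCs) during treatment with an inhibitor of MYC and after its withdrawal. Members were all genes whose symbol starts with Kdm, Hdac, Sirt, Kmt, Setd, Prmt, Ehmt or Suv39h, or with Kat and a digit, and which had a probe set with 1 gene symbol on the array. Setdb1 and Setdb2 are therefore included. This rule found 73 of the 18193 genes tested. ESCs are derived from the inner cell mass of the blastocyst and can form every tissue of the body. They were kept here without feeders or serum in 2i medium, that is with leukaemia inhibitory factor, the MEK inhibitor PD0325901 at 1 μM and the GSK3 inhibitor CHIR99021 at 3 μM. RNA was measured on 8 Affymetrix GeneChip arrays. The inhibitor-treated group (MYCi, 2 arrays) received 64 μM 10058-F4, a small molecule that disrupts the pairing of MYC with MAX, for 60 h. The released group (Resc, 3 arrays) received the same treatment and was then cultured for 48 h without the compound, and the DMSO group (3 arrays) received the solvent alone for 60 h. All 3 groups shared the medium and its inhibitors. By their treatment times, released cells were in culture 48 h longer than the others, and no DMSO group of that length was analysed here.

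Histone-modifying enzymes add or remove acetyl and methyl groups on the tails of histones. Acetyltransferases and deacetylases set the acetylation found at active chromatin, while methylation has a meaning that depends on the residue. On histone H3, methylation of H3K4 marks promoters and enhancers, methylation of H3K36 marks transcribed bodies of genes, and methylation of H3K9 and H3K27 marks repressed chromatin, as does H4K20 methylation on histone H4. In ESCs these enzymes hold pluripotency genes active, keep developmental genes silent but inducible, and silence retroelements. Several members, among them most sirtuins and some SET domain proteins, act mainly on proteins other than histones.

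Values are log2 expression values, and changes are given as a difference of log2 values ± moderated standard error. A change was called when the adjusted p of limma (Benjamini-Hochberg over 18193 genes) was under 0.05. Whether arrays of 1 group stand for separate cultures is not given in the labels. The p-values therefore rest on the spread among these arrays alone, which may be technical. Correlations between arrays of 1 group ran from 0.99769 to 0.99819 across genes. The pluripotency genes Pou5f1, Sox2 and Nanog had group means from 11.30 to 12.32, and none of them passed the test between inhibitor-treated and DMSO arrays. Marker counts stand against all genes tested, of which 19.2% were called higher with the inhibitor and 22.3% lower. Of 8 pluripotency markers, 4 (50%) were called higher and 1 (12.5%) lower. Of 15 trophectoderm markers, 8 (53.3%) were called higher with the inhibitor and 0 lower. The summed level of all 15 on a linear scale was 3927 to 3993 on inhibitor-treated arrays, 882 to 975 on released arrays and 1153 to 1265 on DMSO arrays. The keratin genes Krt8, Krt18 and Krt19 and the transcription factor gene Eomes made up most of this on inhibitor-treated arrays, while Elf5, Psg17 and Plac1 had group means from 2.41 to 3.60, near the 2.15 to 2.95 of bacterial control probe sets. Of 12 fibroblast and feeder markers 1 was called lower with the inhibitor, and summed levels were 150.1 to 161 on inhibitor-treated arrays, 167 to 172 on released arrays and 162 to 174 on DMSO arrays. Of the markers measured, 0 of 10 for endoderm, 0 of 7 for mesoderm and 1 of 7 for neural cells were called higher with the inhibitor, and 2, 2 and 3 lower. The lower shares were 20%, 28.6% and 42.9%, the endoderm and mesoderm shares near that of all genes, on few genes each. For Gapdh, the signal at the 3′ end minus that at the 5′ end, which reflects RNA integrity, was -0.216 to -0.148 on inhibitor-treated arrays, -0.133 to -0.117 on released arrays and -0.130 to -0.108 on DMSO arrays. The same difference for Actb was 0.254 to 0.288 on inhibitor-treated arrays, 0.248 to 0.278 on released arrays and 0.251 to 0.269 on DMSO arrays. These Actb ranges overlapped. The part of these markers and of RNA integrity in the results that follow was not tested. In bulk RNA, fewer cells of a type and less RNA per cell cannot be told apart.

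After 60 h with the inhibitor, more histone-modifying enzyme genes were higher than lower. Of 73 members, 27 rose and 11 fell in limma, and 35 did not pass the test. The share called in either direction was 52.1% of members and 41.5% of all genes tested. Higher calls made up 37.0% of members, against 19.2% of all genes, and lower calls 15.1%, against 22.3%. The members lie at higher levels than most genes, with a median mean level of 8.14 against 5.68 for all genes. Among genes above the 30th percentile of level, 28 of 69 members were called higher, against 27.4% of all such genes, and 11 lower, against 30.6%. With every array centred on its median, 23 members were higher (31.5%, against 17.4% of all genes) and 15 lower (20.5%, against 28.2%). The median log2 change of the members was 0.08, against -0.06 for all genes. The arrays of both groups did not overlap for 53 members (72.6%), against 60.5% of all genes.

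Most changes were small. The median size among called members was 0.42 on the log2 scale, against 0.45 for all called genes. Only 3 members, Setd7, Kdm7a and Kdm6b, were called and changed at least 2-fold, a share of 4.11% against 4.84% of all genes, so large changes were about as frequent as elsewhere. When the probe sets of each gene were averaged, Setd7 stayed above 2-fold at 1.23, Kdm6b was at 0.80 and Kdm7a at 0.60. The plot of log2 changes by class shows these 3 genes apart from the rest.

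**Figure D1:**
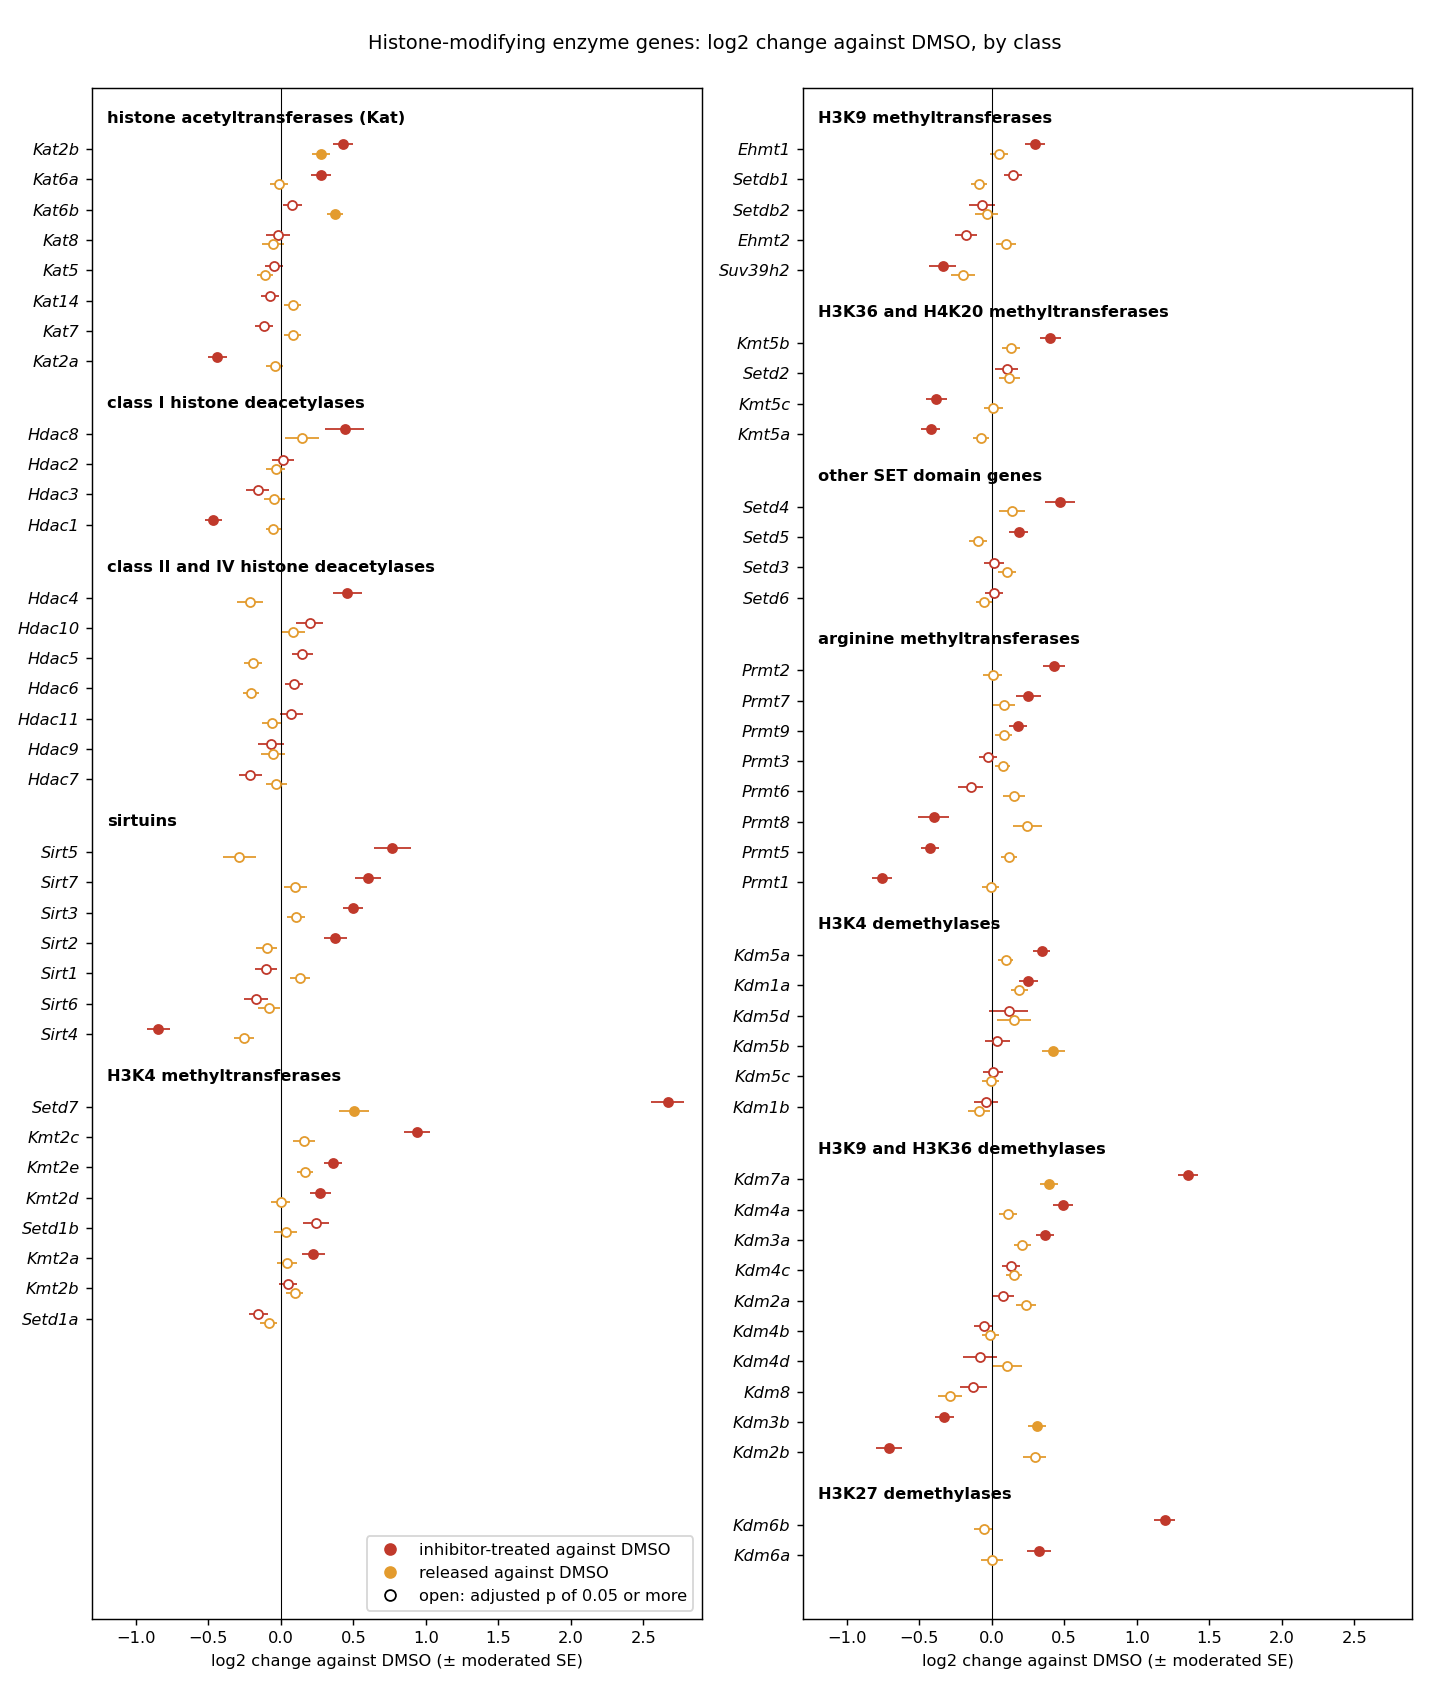
Log2 change against DMSO (x axis, ± moderated standard error) of the 73 members by class, for inhibitor-treated (red) and released (orange) arrays; filled points passed an adjusted p of 0.05. Setd7 at 2.67, Kdm7a at 1.35 and Kdm6b at 1.19 lie farthest right with the inhibitor, and most released points lie near 0.

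**Figure D2:**
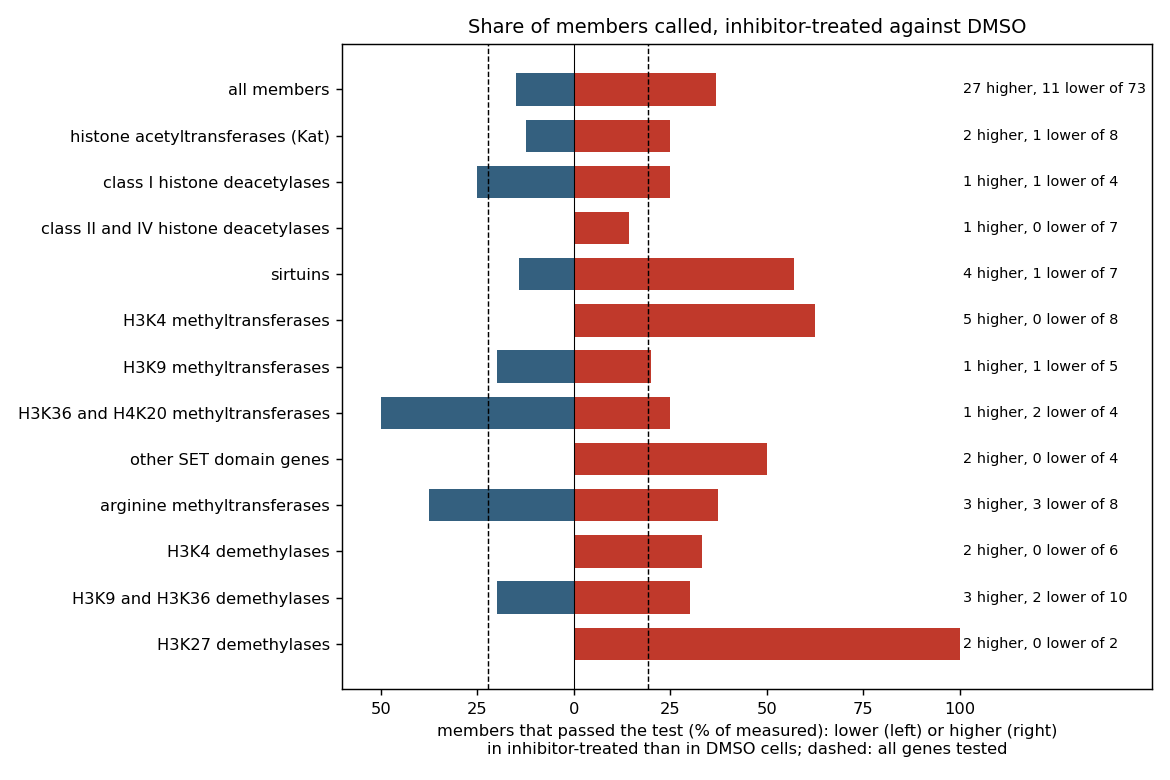
Share of each class (in percent of measured members) that passed the test between inhibitor-treated and DMSO arrays, higher to the right and lower to the left, with dashed lines at the 19.2% and 22.3% of all genes tested. Bars rest on 2 to 10 genes per class, as printed beside them.

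The class counts that follow stand against the 19.2% higher and 22.3% lower of all genes tested. Acetyltransferases (25% and 12.5%), H3K9 methyltransferases (20% each) and demethylases of H3K9 and H3K36 (30% and 20%) lie near these shares, on few genes each.

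Among methyltransferases of H3K4, 5 of 8 rose and the other 3 did not pass. Setd7, which places a single methyl group on H3K4 and also modifies other proteins, showed the largest change of all members. Its values were 7.48 and 7.38 on the inhibitor-treated arrays, 5.03, 5.44 and 5.34 on the released arrays and 4.65, 4.85 and 4.79 on the DMSO arrays. No inhibitor-treated array overlapped with the other groups, and the level was 6.35-fold higher than with DMSO (2.67 ± 0.116; limma adjusted p = 1.61e-07). A second, dim probe set of Setd7 with a mean level of 3.13 changed by -0.21 (limma adjusted p = 0.0619), and the average of both gave 1.23 (5.36e-07). Kmt2c, which with Kmt2d methylates H3K4 at enhancers, measured 9.42 and 9.44 with the inhibitor, 8.66, 8.64 and 8.66 after release and 8.41, 8.39 and 8.68 with DMSO. It rose 1.92-fold (0.94 ± 0.0876; limma adjusted p = 1.77e-05), and each of its 4 probe sets was called higher, by 0.44 to 0.94. Kmt2d measured 8.86 and 8.77 with the inhibitor, 8.63, 8.46 and 8.53 after release and 8.56, 8.48 and 8.59 with DMSO. Its rise was small (0.27 ± 0.073; limma adjusted p = 0.0132), and the call was lost when its 2 probe sets were averaged (0.33) and without inhibitor-treated replicate 1 (0.1). Kmt2e, which belongs to the same family but is thought to lack methyltransferase activity, rose by 0.36, or by 0.22 with probe sets averaged. Kmt2a, which maintains Hox gene expression, rose by 0.22, a call that ended under 10 of 16 alternatives, with limma adjusted p up to 0.213; with probe sets averaged it was 0.38 (0.00212). The remaining members, Kmt2b (0.05), Setd1a (-0.16) and Setd1b (0.24), the last pair being the main enzymes of promoter H3K4 trimethylation, did not pass. Setd1b passed as higher under 4 of 16 alternatives, with 0.21 when its probe sets were averaged (limma adjusted p = 0.0251). Setd1a passed as lower under 2 of 16.

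Of the 6 enzymes that remove H3K4 methylation, 2 rose and 4 did not pass. Kdm1a, which takes mono- and dimethyl groups off H3K4 in complex with Rcor proteins, measured 11.15 and 11.07 with the inhibitor, 11.05, 11.05 and 11.05 after release and 10.79, 10.91 and 10.89 with DMSO. Inhibitor-treated arrays lay above the DMSO arrays and Kdm1a rose by 0.25 ± 0.0646 (limma adjusted p = 0.0106), although not without inhibitor-treated replicate 1 (0.0861). Kdm5a, a demethylase of trimethylated H3K4, rose by 0.34, but not when its 6 probe sets were averaged (limma adjusted p = 0.166). Kdm5b, another enzyme of this family, differed by 0.04 ± 0.0859 (limma adjusted p = 0.755) and Kdm5c by 0.01. Of the 4 probe sets of Kdm5b 1 was called lower, and of the 9 of Kdm5c 2 were called higher. Their averages did not pass (-0.04 and 0.13; limma adjusted p = 0.641 and 0.0941). Kdm5d, which lies on the Y chromosome, had mean levels of 3.44 to 3.59, close to the control probe sets.

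Both demethylases of H3K27, the mark placed by Polycomb repressive complex 2, rose. Kdm6b, also known as JMJD3, measured 9.32 and 9.35 on the inhibitor-treated arrays, 8.19, 8.07 and 8.02 on the released arrays and 8.07, 8.17 and 8.20 on the DMSO arrays. Inhibitor-treated arrays were separate from both other groups, which overlapped, and the rise was 2.28-fold (1.19 ± 0.0727; limma adjusted p = 1.14e-06). All 3 probe sets of Kdm6b were called higher, by 0.42 to 1.19. Kdm6a, the X-linked enzyme also called UTX, rose by 0.33, a call that ended without inhibitor-treated replicate 2 (limma adjusted p = 0.0664) and stood at 0.18 with probe sets averaged (0.0435). Kdm7a, which removes methyl groups from both H3K9 and H3K27, measured 7.86 and 7.81 on the inhibitor-treated arrays, 6.88, 6.91 and 6.87 on the released arrays and 6.57, 6.38 and 6.51 on the DMSO arrays. All 3 groups were separate, with inhibitor-treated arrays highest, and the difference to DMSO was 2.55-fold (1.35 ± 0.0699; limma adjusted p = 4.23e-07). Of its 5 probe sets, 3 were called higher, and the average of all 5 rose by 0.60 (2.8e-05).

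Of 10 demethylases of H3K9 and H3K36, Kdm7a included, 3 rose (30%), 2 fell (20%) and 5 did not pass. Kdm4a, which acts on trimethylated H3K9 and H3K36, measured 8.53 and 8.45 with the inhibitor, 8.02, 8.15 and 8.17 after release and 8.05, 7.96 and 7.99 with DMSO. It rose 1.41-fold (0.49 ± 0.0694; limma adjusted p = 0.000285). Its second probe set, with a mean level of 3.23, changed by -0.13, and the average of both rose by 0.18 (limma adjusted p = 0.0285). Kdm3a, an H3K9 demethylase needed for ESC self-renewal, rose by 0.37. Kdm4c, which likewise acts on H3K9 and H3K36, measured 9.29 and 9.34 with the inhibitor, 9.34, 9.40 and 9.29 after release and 9.17, 9.17 and 9.22 with DMSO. Its inhibitor-treated arrays lay above the DMSO arrays, but the difference of 0.13 ± 0.0629 did not pass (limma adjusted p = 0.126; 95% interval -0.01 to 0.27). With a variance trend and robust fitting it did (0.0474). The fall was largest for Kdm2b, an H3K36 demethylase that binds CpG islands and brings variant Polycomb repressive complex 1 to them. It measured 9.97 and 10.02 on the inhibitor-treated arrays, 10.82, 11.13 and 11.05 on the released arrays and 10.72, 10.67 and 10.73 on the DMSO arrays. Inhibitor-treated arrays were lowest and Kdm2b fell 1.64-fold (-0.71 ± 0.089; limma adjusted p = 0.000128), with both probe sets called lower. Kdm3b, the paralogue of Kdm3a, measured 9.10 and 9.05 with the inhibitor, 9.72, 9.71 and 9.72 after release and 9.42, 9.32 and 9.47 with DMSO. It fell by 0.33 (SE 0.0658; limma adjusted p = 0.00261), opposite in direction to Kdm3a. With both probe sets averaged the change was -0.62.

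The methyltransferases of H3K9, which silence retroelements and lineage genes in ESCs, showed 1 rise and 1 fall in 5 members. Setdb1, the enzyme recruited by Trim28 to endogenous retroviruses, measured 9.17 and 9.12 with the inhibitor, 8.86, 8.98 and 8.90 after release and 8.99, 9.01 and 9.0 with DMSO. The inhibitor-treated arrays lay above the DMSO arrays, but the difference of 0.14 ± 0.0621 did not pass (limma adjusted p = 0.0922), except with repeated quantile normalization (0.0478) or a variance trend (0.0325). Ehmt2, also called G9a, measured 8.64 and 8.58 with the inhibitor, 8.83, 8.84 and 8.97 after release and 8.72, 8.88 and 8.75 with DMSO. Its difference of -0.17 ± 0.0756 did not pass (limma adjusted p = 0.0935), though it did when its 2 probe sets were averaged (0.0433), after centring on the median (0.0268) and with a variance trend (0.0249). Its partner Ehmt1 rose by 0.30 (limma adjusted p = 0.00607). Suv39h2, an enzyme of pericentric heterochromatin, fell by 0.34, a call that ended without inhibitor-treated replicate 2 (limma adjusted p = 0.0952). All 3 of its probe sets were called lower, and their average changed by -0.50 (limma adjusted p = 4.35e-05).

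Among the enzymes of H4K20, Kmt5a, the sole mono-methyltransferase of this residue and a cell cycle regulated protein, fell. It measured 8.72 and 8.80 on the inhibitor-treated arrays, 9.14, 9.13 and 9.05 on the released arrays and 9.15, 9.19 and 9.20 on the DMSO arrays. No inhibitor-treated array overlapped with another group, and the fall was 1.34-fold (-0.42 ± 0.0631; limma adjusted p = 0.000416). With its 4 probe sets averaged the change was -0.26 (0.00872). Kmt5c, which adds further methyl groups, fell by 0.38, and Kmt5b, which does the same, was called higher by 0.40 on its kept probe set while 2 of its other probe sets were called lower. The average of its 5 probe sets changed by -0.0943 (limma adjusted p = 0.216). The H3K36 methyltransferase gene Setd2 did not pass (0.10). Among the other SET domain genes Setd4 rose by 0.47, not without inhibitor-treated replicate 2 (limma adjusted p = 0.0557), and by 0.74 with probe sets averaged. Setd5 was called higher by 0.19 on its kept probe set, a call that was lost under 12 of 16 alternatives and turned to a called fall of -0.27 (limma adjusted p = 0.00221) with its 3 probe sets averaged. The actin histidine methyltransferase gene Setd3 (0.02) and Setd6 (0.02) did not pass on their kept probe sets. For Setd3, 1 of its 2 probe sets was called higher (0.63), and the average of both rose by 0.32 (limma adjusted p = 0.00839).

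Of 8 acetyltransferase genes, 2 rose and 1 fell. Kat2a, which encodes GCN5, the acetyltransferase of the SAGA complex, measured 8.43 and 8.44 with the inhibitor, 8.77, 8.85 and 8.88 after release and 8.83, 8.95 and 8.85 with DMSO. It fell 1.36-fold (-0.44 ± 0.066; limma adjusted p = 0.000429), and all 3 of its probe sets were called lower. Its paralogue Kat2b (PCAF) went the other way. It measured 10.38 and 10.47 on the inhibitor-treated arrays, 10.33, 10.28 and 10.18 on the released arrays and 10.01, 9.94 and 10.02 on the DMSO arrays. The inhibitor-treated arrays were highest and the DMSO arrays lowest without overlap, and the rise with the inhibitor was 0.43 ± 0.0693 (limma adjusted p = 0.000668). Kat5 (TIP60), the acetyltransferase of a complex that MYC recruits, measured 8.09 and 8.0 with the inhibitor, 7.99, 7.96 and 8.0 after release and 8.11, 8.12 and 8.05 with DMSO. Its groups overlapped and the difference of -0.05 ± 0.0617 did not pass (95% interval -0.19 to 0.09; limma adjusted p = 0.579). Kat7 (HBO1), an acetyltransferase of replication origins and promoters, measured 9.22 and 9.26 with the inhibitor, 9.39, 9.47 and 9.44 after release and 9.30, 9.35 and 9.41 with DMSO. Its difference of -0.11 ± 0.0637 did not pass (limma adjusted p = 0.186), except with median centring (0.0492). Kat6a (MOZ) rose by 0.27, but not when its 3 probe sets were averaged (limma adjusted p = 0.694) or without inhibitor-treated replicate 2 (0.0545).

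The class I deacetylases Hdac1 and Hdac2, are paralogues that share the SIN3, NuRD and CoREST complexes. Hdac1 measured 11.14 and 11.15 on the inhibitor-treated arrays, 11.54, 11.59 and 11.56 on the released arrays and 11.65, 11.59 and 11.61 on the DMSO arrays. All inhibitor-treated arrays were below both other groups, and Hdac1 fell 1.38-fold (-0.47 ± 0.0583; limma adjusted p = 0.000125). Hdac2 measured 10.85 and 10.72 on the inhibitor-treated arrays, 10.69, 10.79 and 10.74 on the released arrays and 10.71, 10.75 and 10.86 on the DMSO arrays. Its groups overlapped, and the difference of 0.01 ± 0.0732 (95% interval -0.15 to 0.18; limma adjusted p = 0.897) did not pass. The 95% interval for Hdac1 was -0.60 to -0.34, and the difference between the paralogues was not tested. Hdac3, the enzyme of the NCOR complexes, did not pass (-0.16), and Hdac8 rose by 0.44, not without inhibitor-treated replicate 2 (limma adjusted p = 0.233) or DMSO replicate 3 (0.0715). In classes II and IV, whose class II members shuttle between nucleus and cytoplasm or act on tubulin, 1 of 7 genes was called. This was Hdac4, which rose by 0.46 (limma adjusted p = 0.00445), or by 0.23 with probe sets averaged (0.0222). Hdac9, with mean levels of 2.98 to 3.04, lay close to the control probe sets.

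Of 7 sirtuins, deacylases that consume NAD+, 4 rose and 1 fell. The mitochondrial members divided. Sirt5, which removes succinyl and malonyl groups, measured 6.41 and 6.59 with the inhibitor, 5.22, 5.45 and 5.67 after release and 5.76, 5.85 and 5.60 with DMSO. It rose 1.7-fold (0.77 ± 0.127; limma adjusted p = 0.000803). Of its 3 probe sets 2 were called higher, and the average of all 3 rose by 0.38 (limma adjusted p = 0.00416). Sirt3, the main mitochondrial deacetylase, measured 7.85 and 7.83 with the inhibitor, 7.45, 7.39 and 7.50 after release and 7.28, 7.42 and 7.32 with DMSO. Its rise was 1.41-fold (0.50 ± 0.0681; limma adjusted p = 0.00023). Sirt4, which restrains glutamine use by mitochondria, showed the largest fall of all members. Its values were 5.88 and 6.08 on the inhibitor-treated arrays, 6.62, 6.55 and 6.54 on the released arrays and 6.80, 6.91 and 6.76 on the DMSO arrays. The 3 groups were separate, with DMSO arrays highest, and the inhibitor-treated level was 1.8-fold lower than with DMSO (-0.85 ± 0.0785; limma adjusted p = 1.71e-05). Of the other members, Sirt7, a nucleolar deacetylase of histone H3, measured 8.26 and 8.07 with the inhibitor, 7.63, 7.60 and 7.76 after release and 7.52, 7.68 and 7.49 with DMSO. It rose 1.52-fold (0.60 ± 0.089; limma adjusted p = 0.000392). Sirt2, the cytoplasmic tubulin deacetylase, rose by 0.38, and the nuclear members Sirt1 (-0.10) and Sirt6 (-0.17) did not pass.

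Arginine methyltransferases split evenly, with 3 of 8 higher and 3 lower. Prmt1, which makes most asymmetric dimethylarginine, measured 10.45 and 10.38 on the inhibitor-treated arrays, 11.14, 11.17 and 11.20 on the released arrays and 11.10, 11.24 and 11.18 on the DMSO arrays. Inhibitor-treated arrays were far below the other groups, which overlapped, and the fall was 1.69-fold (-0.76 ± 0.0667; limma adjusted p = 1.21e-05). Prmt5, the main enzyme of symmetric dimethylation and a known MYC target needed for splicing, measured 9.23 and 9.15 with the inhibitor, 9.73, 9.74 and 9.73 after release and 9.61, 9.66 and 9.58 with DMSO. It fell 1.34-fold (-0.43 ± 0.0606; limma adjusted p = 0.000302). Prmt8, a membrane-bound relative of Prmt1 known from brain, measured 3.19 and 3.35 with the inhibitor, 3.97, 3.74 and 4.03 after release and 3.59, 3.84 and 3.58 with DMSO. These values are near the level of the control probe sets, and the fall (-0.40 ± 0.11; limma adjusted p = 0.0146) was not called without inhibitor-treated replicate 1 (0.117). Prmt2 rose by 0.43 (limma adjusted p = 0.001), or by 0.72 with probe sets averaged. Prmt3, an enzyme that acts on a ribosomal protein, did not pass on its kept probe set (-0.03), but 3 of its 5 probe sets were called lower and the average of all 5 fell (-0.30; limma adjusted p = 0.0019). The rises of Prmt7 (0.25) and Prmt9 (0.18) ended under 8 and 12 of 16 alternatives, with limma adjusted p up to 0.399 and 0.151.

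**Figure D3:**
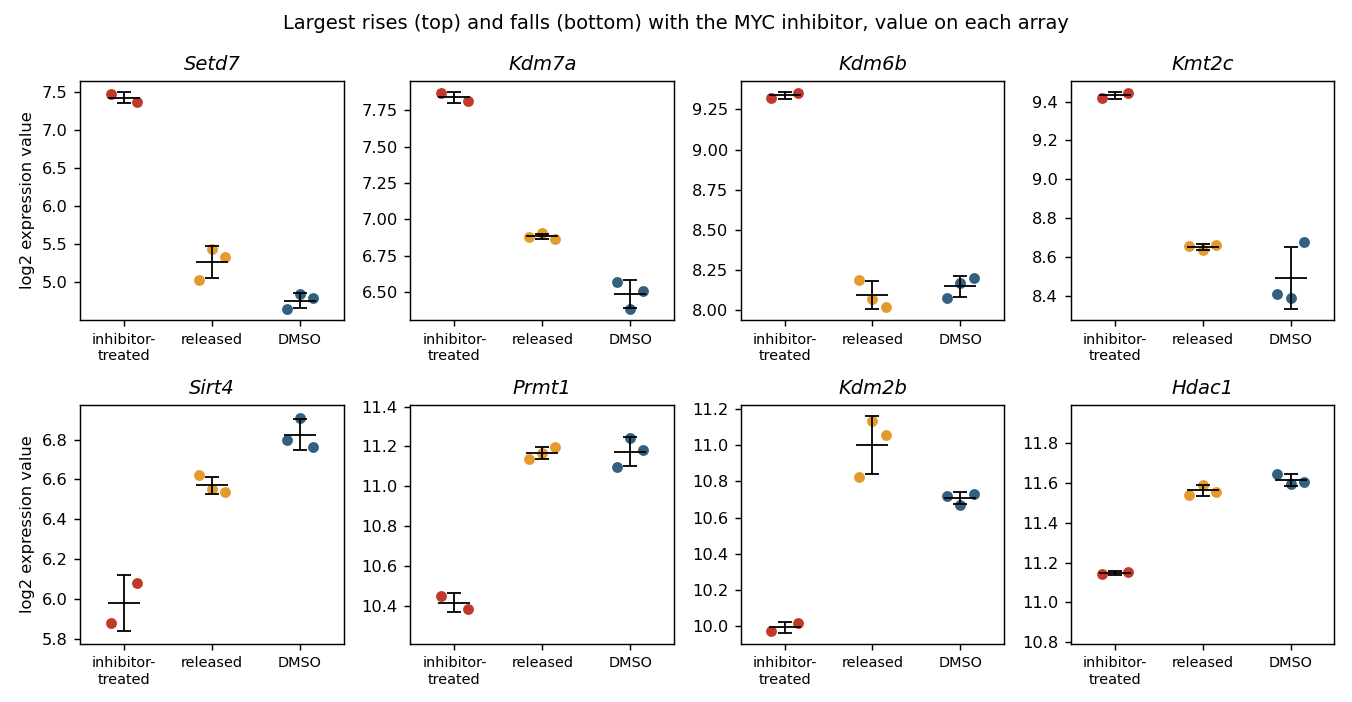
Log2 expression value (y axis) on each array for the 4 largest rises (top) and the 4 largest falls (bottom) with the inhibitor, with group mean and SD as bars; the y axes differ between panels. Inhibitor-treated points lie apart from DMSO points in all 8 panels, and released points lie between both for Setd7, Kdm7a, Sirt4 and, by a narrow margin, Hdac1.

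MYC and MAX bind as a pair to the E-box, whose letters CACGTG read the same on both strands, so promoters were searched for it. RefSeq promoter sequences (GRCm38.p6), each from 250 bases before to 50 after a gene's start, were at hand for 61 of 73 members. Of these, 8 members (13.1%) had a CACGTG, against 10.2% of the 14452 tested genes with a promoter, and among all 32851 promoters of this length 7.15% had one. By the response to the inhibitor, 1 of 23 members that rose, 1 of 9 that fell and 6 of 29 that did not pass had a CACGTG. This tally rests on the kept probe sets: of the 6, Prmt3 and Ehmt2 were called lower when probe sets were averaged. The 250 bases before the start are shown for Prmt1, the fallen member with an E-box, for Kdm4c, which has 2 copies and did not pass the test, and for Setd7, the largest rise, with no CACGTG in its window. Capitals mark the E-box, which begins 181 bases before the start in Prmt1 and 85 and 53 bases before it in Kdm4c.
Prmt1, chr7:44986421-44986670, minus strand: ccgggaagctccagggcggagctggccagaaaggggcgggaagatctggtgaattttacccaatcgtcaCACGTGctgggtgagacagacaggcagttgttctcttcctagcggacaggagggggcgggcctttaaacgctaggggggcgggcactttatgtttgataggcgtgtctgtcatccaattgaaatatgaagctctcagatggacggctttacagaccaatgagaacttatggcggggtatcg
Kdm4c, chr4:74251629-74251878, plus strand: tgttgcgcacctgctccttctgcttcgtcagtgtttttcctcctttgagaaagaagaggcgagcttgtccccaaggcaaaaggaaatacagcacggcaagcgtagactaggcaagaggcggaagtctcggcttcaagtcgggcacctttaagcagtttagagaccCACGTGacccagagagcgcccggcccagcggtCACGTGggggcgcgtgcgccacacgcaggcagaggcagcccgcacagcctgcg
Setd7, chr3:51560824-51561073, minus strand: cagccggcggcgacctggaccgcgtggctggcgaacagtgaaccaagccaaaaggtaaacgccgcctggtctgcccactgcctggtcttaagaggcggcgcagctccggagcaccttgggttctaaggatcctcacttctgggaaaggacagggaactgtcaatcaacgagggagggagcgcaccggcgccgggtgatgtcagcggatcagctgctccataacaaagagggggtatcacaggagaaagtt
A match is a description of these letters and was not tested as a binding site.

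Enzymes outside the symbol rule and the non-catalytic partners of the members were described from 5 further lists. Of 12 subunits of the H3K4 methyltransferase complexes, 2 rose (16.7%, against 19.2% of all genes) and 8 fell (66.7%, against 22.3%). Their median was -0.24, against -0.06 for all genes, while the 6 enzymes Kmt2a to Kmt2d, Setd1a and Setd1b, which work in these complexes, had a median of 0.23. Dpy30, a core subunit, fell most clearly (-0.66 ± 0.0593; limma adjusted p = 1.33e-05), and Ncoa6, a subunit of the Kmt2c and Kmt2d complexes, rose (0.39 ± 0.0962; limma adjusted p = 0.00814), but not without inhibitor-treated replicate 2 (0.0769). Of 11 partners of H3K9 methylation, 1 rose (9.09%) and 6 fell (54.5%), with a median of -0.27. Uhrf1, which links H3K9 methylation to maintenance of DNA methylation, fell by 1.19 (SE 0.0679; limma adjusted p = 7.61e-07), and Atf7ip, the partner of Setdb1, rose (0.57 ± 0.0684; limma adjusted p = 9.45e-05), or by 0.30 with probe sets averaged.

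Deacetylase complexes held the largest rise and the largest fall of the 5 lists. Of 22 measured subunits, 5 rose (22.7%, against 19.2% of all genes) and 10 fell (45.5%, against 22.3%), with a median of -0.16. Rcor2, the ESC form of the CoREST scaffold that pairs Kdm1a with Hdac1 and Hdac2, fell most clearly (-1.39 ± 0.0802; limma adjusted p = 8.25e-07), and Mbd2, a methyl-CpG binding subunit of NuRD, rose (1.16 ± 0.0688; limma adjusted p = 9.27e-07), or by 0.77 with probe sets averaged. Of 28 genes listed for acetyltransferase complexes, 7 rose (25%) and 6 fell (21.4%), both near the shares of all genes, with a median of -0.01. Jade1, a scaffold of Kat7 complexes, rose (0.51 ± 0.0578; limma adjusted p = 6.84e-05). Ing1, a reader of methylated H3K4, fell (-0.60 ± 0.0691; limma adjusted p = 7.08e-05). It was counted in this list, but its membership of an acetyltransferase complex is not shown here. Of 23 other histone-modifying enzymes, 7 rose (30.4%) and 4 fell (17.4%), with a median of 0.06. The coactivator Ncoa1 rose (1.05 ± 0.0913; limma adjusted p = 1.11e-05), or by 0.59 with probe sets averaged, and the arginine methyltransferase Carm1, the member of the Prmt family with another symbol, fell (-0.57 ± 0.0708; limma adjusted p = 0.000125).

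**Figure D4:**
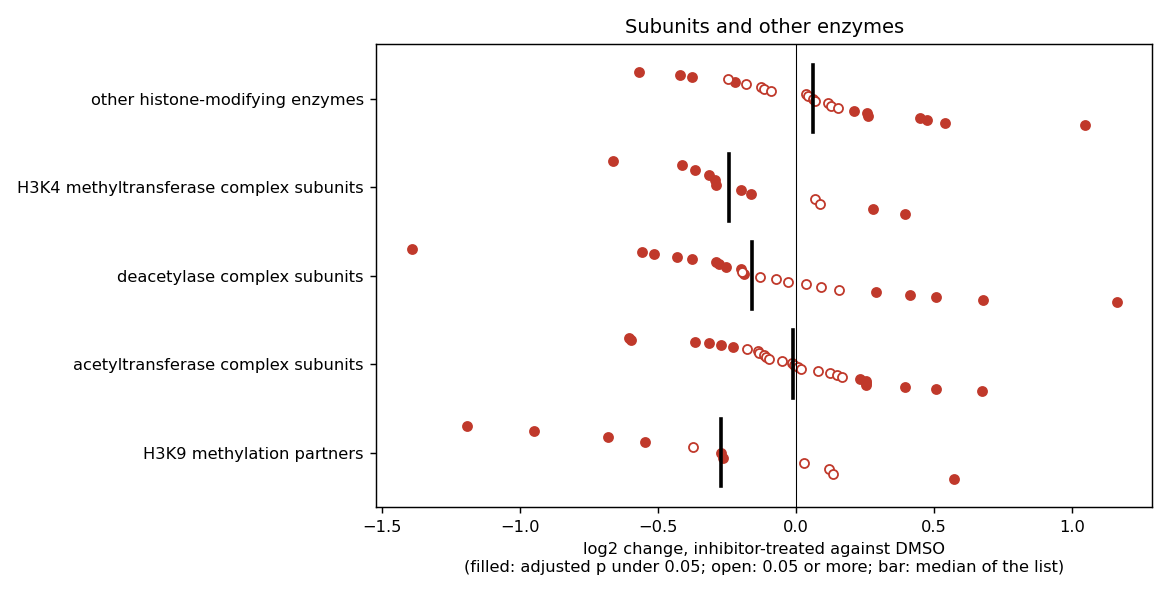
Log2 change between inhibitor-treated and DMSO arrays (x axis) of each measured gene in 5 lists outside the symbol rule; filled points passed an adjusted p of 0.05 and vertical bars are medians. The medians of H3K4 complex subunits and H3K9 partners lie at -0.24 and -0.27, those of the acetyltransferase complex list and of other enzymes near 0.

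On withdrawal of the compound, more members were lower than higher on the kept probe sets. When probe sets were averaged, 17 were higher (23.3%, against 22.9% of all genes) and 18 lower (24.7%, against 17.6%). Released cells were compared with inhibitor-treated cells on the same inhibitor-treated arrays as above, so the changes of both comparisons are linked by construction and are given side by side. Of 73 members, 16 were higher and 23 lower in released than in inhibitor-treated cells in limma, and 34 did not pass. The share called in either direction was 53.4% of members and 41.9% of all genes tested. Higher calls made up 21.9% of members, against 22.7% of all genes, and lower calls 31.5%, against 19.2%. Among genes above the 30th percentile of level, 16 of 69 members were higher, against 31.4% of all such genes, and 24 lower, against 27.4%. The arrays of both groups did not overlap for 55 members (75.3%), against 61.9% of all genes. A change of at least 2-fold was called for 4 members, a share of 5.48% against 5.28% of all genes. Setd7 was 4.47-fold lower (-2.16 ± 0.116), after a change of 2.67 with the inhibitor. Kdm6b was 2.37-fold lower (-1.25 ± 0.0727), after 1.19. Sirt5 was 2.08-fold lower (-1.05 ± 0.127), after 0.77, and Kdm7a was 1.94-fold lower (-0.96 ± 0.0699), after 1.35. In the other direction, Kdm2b was 2.01-fold higher (1.01 ± 0.089) after -0.71 with the inhibitor, Prmt1 1.68-fold higher after -0.76, and Prmt5 1.46-fold higher after -0.43. With probe sets averaged the differences were -0.90 for Setd7, -0.74 for Kdm6b, -0.57 for Sirt5 and -0.43 for Kdm7a, all still called in limma.

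Some members that did not pass between inhibitor-treated and DMSO cells passed here. The class II deacetylases Hdac5 (-0.34 ± 0.0707) and Hdac6 (-0.29 ± 0.0628) were lower in released cells. Setdb1 was lower too (-0.23 ± 0.0621; limma adjusted p = 0.0126), but not when its probe sets were averaged (0.695) or without inhibitor-treated replicate 1 (0.0808). Ehmt2 was higher (0.27 ± 0.0756; limma adjusted p = 0.0152), but not without inhibitor-treated replicate 2 (0.096) or released replicate 3 (0.0525). Kat7 was higher by 0.20 ± 0.0637 (limma adjusted p = 0.0319), a call that ended under 6 of 16 alternatives, with adjusted p up to 0.149. Whether these changes differ in size from those with the inhibitor was not tested.

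After release, few members still differed from DMSO. In limma, 6 of 73 were higher and 0 lower in released than in DMSO cells. At an unadjusted p under 0.05, 13 of 73 were higher and 7 lower, against 2114 higher and 2000 lower of all 18193 genes. Over all genes tested, 4.66% were called higher and 4.01% lower, and 8.66% in either direction, against 8.22% of the members, so the members differed about as often as other genes. With median centring, as with repeated quantile normalization, 7 were higher (9.59%) and 1 lower (1.37%). Of all genes, 4.53% were higher and 4.64% lower with centring, and 4.97% and 4.40% with quantile normalization. With a variance trend and robust fitting, 12 were higher (16.4%, against 7.60% of all genes) and 3 lower (4.11%, against 6.92%). Among genes above the 30th percentile of level, 10 of 69 members were higher, against 8.57% of all such genes, and 3 lower, against 7.81%. The arrays did not overlap for 27 members (37.0%), against 28.6% of all genes. None of the 6 members changed 1.5-fold.

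The 6 members fell into different courses over the 3 groups. Kdm5b, which removes trimethylation from H3K4 and is abundant in ESCs, measured 9.05 and 9.22 on the inhibitor-treated arrays, 9.64, 9.48 and 9.44 on the released arrays and 9.09, 9.02 and 9.17 on the DMSO arrays. Released arrays were above both other groups, which overlapped, and the difference to DMSO was 0.42 ± 0.0769 (limma adjusted p = 0.00878). Against inhibitor-treated cells it was 0.39 ± 0.0859 (limma adjusted p = 0.00483), not called without inhibitor-treated replicate 1 (0.0563). Kat6b (MORF), the paralogue of Kat6a, followed the same course and measured 9.88 and 9.92 on the inhibitor-treated arrays, 10.17, 10.20 and 10.20 on the released arrays and 9.77, 9.80 and 9.90 on the DMSO arrays. It was higher than with DMSO by 0.37 ± 0.0565 (limma adjusted p = 0.00347) and than with the inhibitor by 0.29 ± 0.0632, but when its 3 probe sets were averaged neither call held (0.14 and 0.0706). Kdm3b, given above, was lowest with the inhibitor and highest after release, with no overlap between any groups. Its released level exceeded DMSO by 0.31 ± 0.0588 (limma adjusted p = 0.0107) and inhibitor-treated cells by 0.64 ± 0.0658 (limma adjusted p = 3.21e-05).

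The other 3 had risen with the inhibitor and stayed above DMSO. Setd7 was higher by 0.51 ± 0.104 (limma adjusted p = 0.0157), a call that ended without released replicate 2 (0.0543) or 3 (0.0561) and without DMSO replicate 1 (0.0608). With both probe sets averaged it was 0.33 (0.00853). Kdm7a was higher by 0.40 ± 0.0626 (limma adjusted p = 0.00417), but not when its 5 probe sets were averaged (0.0834). Kat2b was higher by 0.27 ± 0.062 (limma adjusted p = 0.0242), a call that ended without released replicate 1 (0.0881) or 2 (0.0812) and without DMSO replicate 1 (0.0608) or 2 (0.0774). Near the threshold, Kdm2b was above DMSO by 0.30 ± 0.0796 with no overlap of arrays (limma adjusted p = 0.0501), and it passed under 7 of 16 alternatives. Sirt4 was below DMSO by 0.25 (SE 0.0702) with no overlap (limma adjusted p = 0.0544), and it passed under 6 of 16. Hdac6 (-0.20) passed under 5 of 16, and Kdm2a (0.24) and Kdm3a (0.21) under 3 each. In all, 11 of the 67 members not called passed under at least 1 alternative. On their kept probe sets, Hdac1, Prmt1, Kat2a, Kmt5a and Prmt5, all lower with the inhibitor, lay between -0.08 and 0.12 of DMSO after release, and none passed. The 3 probe sets of Kat2a ran from -0.27 to -0.0025 against DMSO, and 1 was called lower. Their average did not pass (-0.10; limma adjusted p = 0.279).

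**Figure D5:**
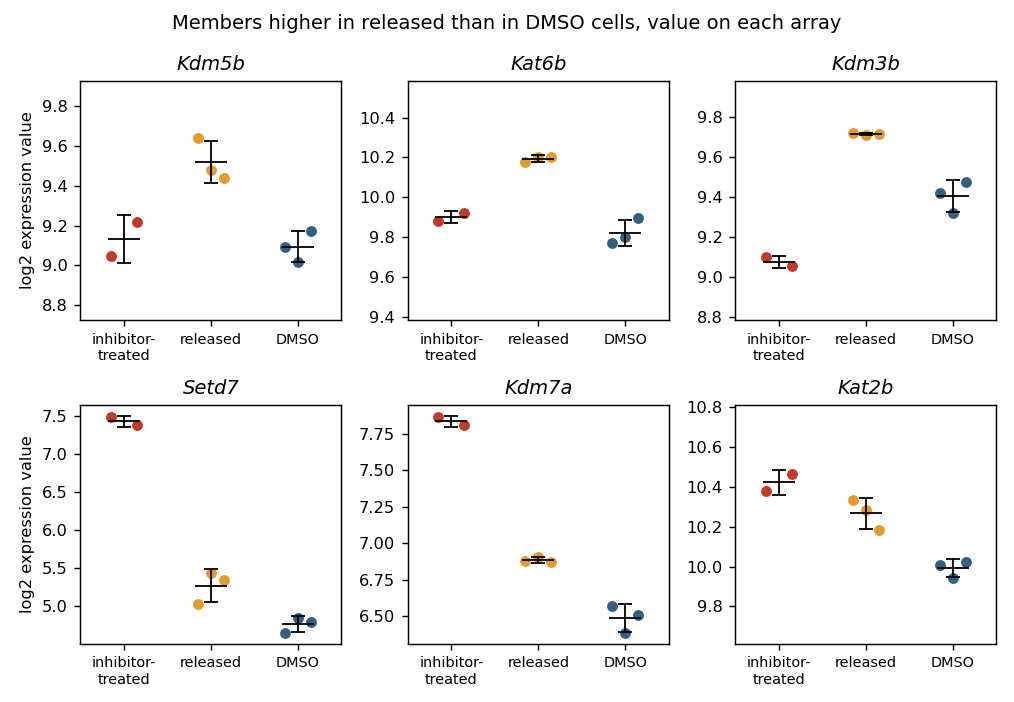
Log2 expression value (y axis) on each array for the 6 members that were higher in released than in DMSO cells, with group mean and SD as bars; the y axes differ between panels. Kdm5b and Kat6b are high in released cells only, Kdm3b is low with the inhibitor and high after release, and Setd7, Kdm7a and Kat2b are highest with the inhibitor.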

How the data were processed

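The deposited table has 1 log2 value for each probe set on each array. RMA, with oligo 1.32.0 and limma 3.2.15, is named in the submitters' processing notes, and the log2 scale was read from the values (1.69 to 13.76). RMA values are relative within an array, so a change of RNA amount shared by most genes is not visible. Of 45101 probe sets, 34945 had 1 gene symbol in the platform annotation, 932 several and 9160 none, and 64 were controls. Gene numbers of 34741 were found in the RefSeq list of GRCm38.p6, which changed 0 symbols. Per gene the probe set with the highest mean over 8 arrays was kept; 47 members had more than 1. Affymetrix marks 8 kept probe sets of members (suffix s) as matching several transcripts. Array data have no read depth; the number of arrays limits the precision, and the median standard error was 0.0828 for inhibitor-treated against DMSO and 0.0741 for released against DMSO arrays.

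All 8 arrays were fitted in limma 3.58.1 (R 4.3.3; lmFit, eBayes) with 1 mean per group and 5 residual degrees of freedom. The procedure was tested on simulated data. Tables and figures were made with Python 3.11.15, numpy 2.4.6, pandas 2.3.3 and matplotlib 3.10.9. Full values are given for the 8 largest rises and falls per comparison with DMSO that passed with no overlap of arrays, and for 10 enzymes with known ESC roles; in the partner lists, the rise and the fall with the smallest p. The members and lists were chosen with earlier results of these data known. Each result was also computed after averaging a gene's probe sets, without genes below the 30th percentile of level, after centring on the median, after quantile normalization again, with a variance trend and robust fitting, with array weights, with only the arrays compared, at stricter thresholds, with the replicate block and without each array.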

Additional observations from a re-analysis of the deposited data

How the results depend on the processing

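The number of members called higher with the inhibitor was 27 and ran from 20 to 25 when 1 array was left out; 11 were lower, with 10 to 12. Between released and inhibitor-treated cells, 16 were higher (12 to 16) and 23 lower (18 to 24), and between released and DMSO cells 6 were higher (4 to 7) and 0 lower (0 to 1). With 1 array left out, 15.7% to 19.0% of all genes were higher with the inhibitor and 16.2% to 21.9% lower. These shares were 16.4% to 22.7% and 15.6% to 19.2% on release. Between released and DMSO cells they were 2.74% to 3.96% and 2.37% to 3.43%. Asking for at least 1.5-fold left 6 members higher with the inhibitor (8.22%, against 8.26% of all genes) and 3 lower (4.11%, against 6.22%). On release it left 5 higher (6.85%, against 6.37%) and 6 lower (8.22%, against 8.18%). Between released and DMSO cells it left 0 higher, against 0.77% of all genes. For released against DMSO cells, 10 were higher and 3 lower without low-level genes, and 12 and 3 with a variance trend and robust fitting, with shares given above. At an adjusted p under 0.01, 3 were higher (4.11%, against 1.93% of all genes). The mean of all probe sets gave 2 lower (2.74%, against 4.19%). Median centring, repeated quantile normalization or only the arrays compared gave 1 lower each (1.37%, against 4.64%, 4.40% and 3.43%). Replicate numbers did not pair the arrays: deviations of same-numbered arrays correlated from -0.056 to 0.014. With the replicate block, 23 and 11, 14 and 21, and 5 and 0 members were higher and lower in the 3 comparisons. The shares of all genes were then 17.8% and 19.7%, 19.7% and 17.8%, and 3.47% and 3.01%. Over 16 alternatives at the same threshold, and leaving turned directions aside, 25 of 38 calls with the inhibitor held under all. So did 24 of 39 between released and inhibitor-treated cells, and 2 of 6 between released and DMSO cells. The 25 include Kmt5b and the 24 include Kdm5a. With probe sets averaged, both turned direction and did not pass in these comparisons. Among called members, only the mean of all probe sets turned a direction. It gave 22 higher (30.1%, against 17.7% of all genes) and 14 lower (19.2%, against 22.8%) with the inhibitor. On release it gave 17 higher (23.3%, against 22.9%) and 18 lower (24.7%, against 17.6%). Signs of members that were not called turned under other settings too, 90 times over 3 comparisons and 16 alternatives in all, each for a change of at most 0.15 in size. For inhibitor-treated against DMSO cells this gave Kmt5b -0.0943 and Setd5 -0.27, and for released against inhibitor-treated cells Kmt5b 0.16, Setd5 0.16 and Kdm5a 0.0031; the other probe sets of these genes are lower in level. The number of arrays and the compression of values near the control probe sets, where Hdac9, Kdm4d, Kdm5d and Prmt8 lie, limit what could be seen.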

Other observations

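Probe sets of 1 member did not always agree. Of 47 members with more than 1 probe set, 32 had at least 1 called between inhibitor-treated and DMSO arrays, and Kmt5b and Prmt7 had calls in both directions. The same count over all genes with more than 1 probe set was not made. In Kmt5b, the probe sets with mean levels of 6.72 and 6.48 changed by 0.40 and 0.78, and those at 6.40 and 5.20 by -0.72 each (limma adjusted p from 9.16e-06 to 0.00192 over these 4). Between released and inhibitor-treated arrays the same 4 changed by -0.27, -1.0, 0.86 and 0.83. The files used here do not say which transcripts each probe set detects. In Setd5, the brightest probe set changed by 0.19 and the next, with a mean level of 5.54, by -0.74 (limma adjusted p = 0.000268 in the fit over all probe sets). In Setd7, the dim probe set was 0.37 higher in released than in inhibitor-treated cells (limma adjusted p = 0.00382), against -2.16 for the kept one.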
